A study of Caenorhabditis elegans with 50 samples.

Results

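The cuticlin genes (cut) and cuticlin-like genes (cutl) of the nematode Caenorhabditis elegans were followed through whole-animal RNA of 10 strains. Members were all entries of the deposited count table that name a single gene of the cut or cutl classes, which gave 30 genes (5 cut and 25 cutl) of 33458 entries. The WBcel235 annotation lists 35 such names. Of the others, cut-4, cutl-14, cutl-20 and cutl-24 occurred only in entries shared with neighbouring genes, and cutl-19 was not found. The members lie on all 6 chromosomes, with 5 on chromosome I, 8 on II, 3 on III, 4 on IV, 5 on V and 5 on X.

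The worm cuticle is an extracellular matrix secreted by the epidermis and rebuilt at each molt, mostly from collagens. Cuticlins are the insoluble residue that stays after collagens are extracted. Most cuticlin genes encode zona pellucida (ZP) domain proteins, which polymerise outside the cell and shape ridges such as the alae along the sides of the animal, while CUT-2 lacks a ZP domain and is cross-linked through tyrosine. CUT-1, CUT-5 and CUT-6 are needed for the alae of the dauer, the arrested larva that forms when insulin signalling is low, and CUT-3 and CUT-5 for those of the first larval stage. Most cutl genes have no described role. DAF-2 is the insulin receptor homologue, and DAF-16 is the FOXO factor that acts when DAF-2 signalling is low or the germline is missing.

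Each strain was sampled 5 times as 1-day-old adults. The daf-2 family holds 35 libraries. It comprises the wild type (WT), the strong allele daf-2(e1370) with its double mutants daf-16(mg54);daf-2(e1370) and, with the other daf-16 allele, daf-16(mu86);daf-2(e1370), and the weak allele daf-2(e1368) with its own mg54 and mu86 doubles. These animals spent 72 hours at 15 °C and then moved to 20 °C, and the eggs of daf-2(e1370) were laid 6 hours before the others. The glp-1 family holds 15 libraries of glp-1(e2141), a mutant of the Notch receptor that keeps germline stem cells, and of its doubles with mg54 and mu86. It was grown for 48 hours at 25 °C, which removes the germline, and WT grown at that temperature was not analysed here. A daf-16 comparison below is a single mutant minus the average of its mg54 and mu86 doubles.

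In units of 1e6 fragments, daf-2(e1370) replicate 2 was shallow at 2.37, the other daf-2 family libraries held 19.89 to 34.25, and the glp-1 family 13.82 to 23.81. For daf-2(e1370), replicates 0 and 1 of each double stood apart: summed sperm marker levels there were 55.03 to 423 CPM (fragments per 1e6 of the library, scaled by TMM factors), against 1184 to 1652 in the other 6 libraries of those strains. In the glp-1 family, glp-1(e2141) replicate 0, its mg54 double replicate 2 and its mu86 double replicate 3 had the lowest summed pharynx markers (1046 to 1267 CPM, against 1362 to 1729 in the others). The daf-16 transcript averaged 204 CPM in WT, 97.9 to 175.5 CPM in mg54 doubles and 175.5 to 465 CPM in mu86 doubles, so transcript level alone does not mark every double. Germline markers summed to 6678 to 15060 CPM in the daf-2 family and to 9.90 to 45.7 CPM in the glp-1 family. The top value came from the shallow daf-2(e1370) replicate 2. The sums do not cover the same genes, since oma-2, perm-2, perm-4 and cpg-1 were at 0 throughout the daf-2 family except in daf-2(e1370). In whole animals, fewer cells of a type and less RNA per cell cannot be told apart.

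Most cuticlin genes were scarce in these adults. In WT, levels per kilobase of exon were led by cutl-15 at 23.4 ± 1.30 CPM per kb (SD, n = 5), then cutl-6 at 7.69 ± 0.663, cutl-18 at 3.80 ± 0.561, cutl-26 at 3.41 ± 0.472 and cutl-10 at 2.17 ± 0.291 CPM per kb. The means of cutl-18 and cutl-26 lie within 1 SD of each other, so their order is not resolved. The cut genes came lower, with cut-2 at 0.480 ± 0.616, cut-6 at 0.108 ± 0.0867, cut-5 at 0.0956 ± 0.0442 and cut-3 at 0.00993 ± 0.0136 CPM per kb. cut-1, a dauer alae gene, was listed at 0 in all 50 libraries. It shares a locus of 156 entries that was wholly at 0, so its level was not estimated. In glp-1(e2141) the order was led by cutl-6 at 9.63 ± 2.11, cutl-26 at 8.42 ± 0.523 and cutl-18 at 8.33 ± 1.59 CPM per kb, with cutl-15 eighth at 2.63 ± 0.555 CPM per kb. The protein-coding gene nuo-6 overlaps cutl-6 on the other strand in WBcel235, and 96% of cutl-6 values were not whole. The place of cutl-6 in both orders may therefore include reads of nuo-6. The same limit holds for cutl-15 with T21B10.4 (78% of values not whole) and cutl-18 with T03F7.7 (94%), also on the other strand. T21B10.4 averaged 91.8 CPM in WT and 0.0818 CPM in glp-1(e2141), so the first place of cutl-15 in WT may include its reads.

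**Figure D1:**
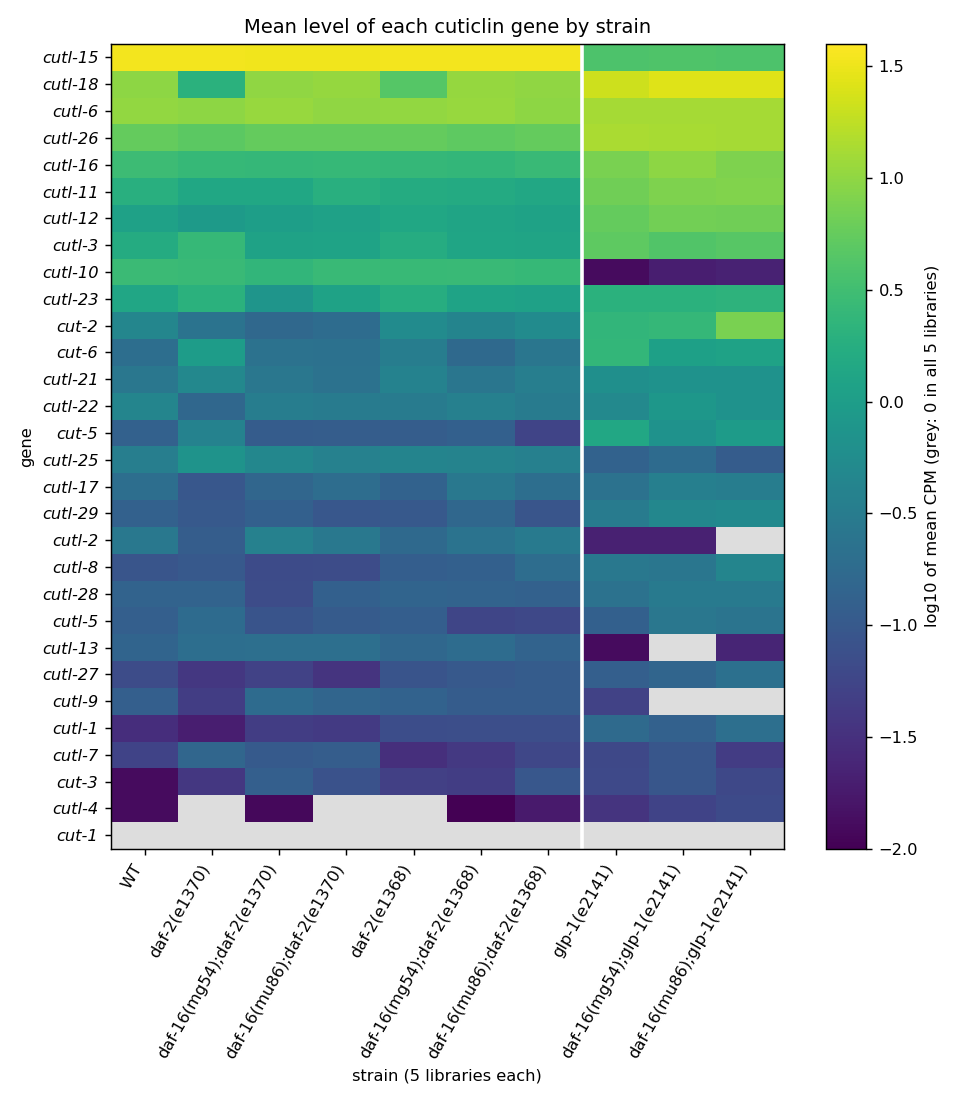
Mean level of the 30 cuticlin genes (rows, ordered by mean) in the 10 strains (columns, 5 libraries each), coloured by log10 of mean CPM, with grey for 0 in all 5 libraries. The white line separates the daf-2 family (left) from the glp-1 family (right). cutl-18 is darker in daf-2(e1370) than in WT, at 2.02 CPM, and cutl-15 and cutl-10 are dark in the glp-1 strains.

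Enough reads for a test (edgeR's filterByExpr) were found for 16 of the 30 members in the daf-2 family and 14 in the glp-1 family, and for 19 when all 50 libraries were fitted together. Members left out had at most 19 fragments in any daf-2 family library (cutl-17) and at most 15 in any glp-1 family library (cutl-29). A gene could pass this filter through the strain where it is high, so the counts below cover tested members only.

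In the strong daf-2 allele, cut-6, cutl-3 and cutl-23 were higher and cutl-18 was lower than in the daf-16 doubles. These are 4 of 16 tested members (25.0%), against 27.9% of all 11763 entries tested, a share close to that background. By direction, 3 were higher, against 14.3% of entries, and 1 lower, against 13.5%. Against each double alone, 5 members were called with mg54 (22.5% of entries) and 3 with mu86 (21.8%). The median log2 difference of the 16 was 0.05, against 0.02 over all entries. The other 12 did not pass, and their log2 differences lay between -1.09 (cutl-2) and 0.86 (cutl-21). In the weak allele, only cutl-18 passed, which is 1 of 16 (6.25%) against 5.18% of entries, and it passed against mg54 (2.88%) and mu86 (4.26%) separately. In glp-1(e2141), only cut-6 passed, which is 1 of 14 (7.14%) against 4.97%, and no member passed against mg54 alone (3.04%, 2 members at an unadjusted p under 0.05) or mu86 alone (3.09%, 1 member so) by edgeR.

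**Figure D2:**
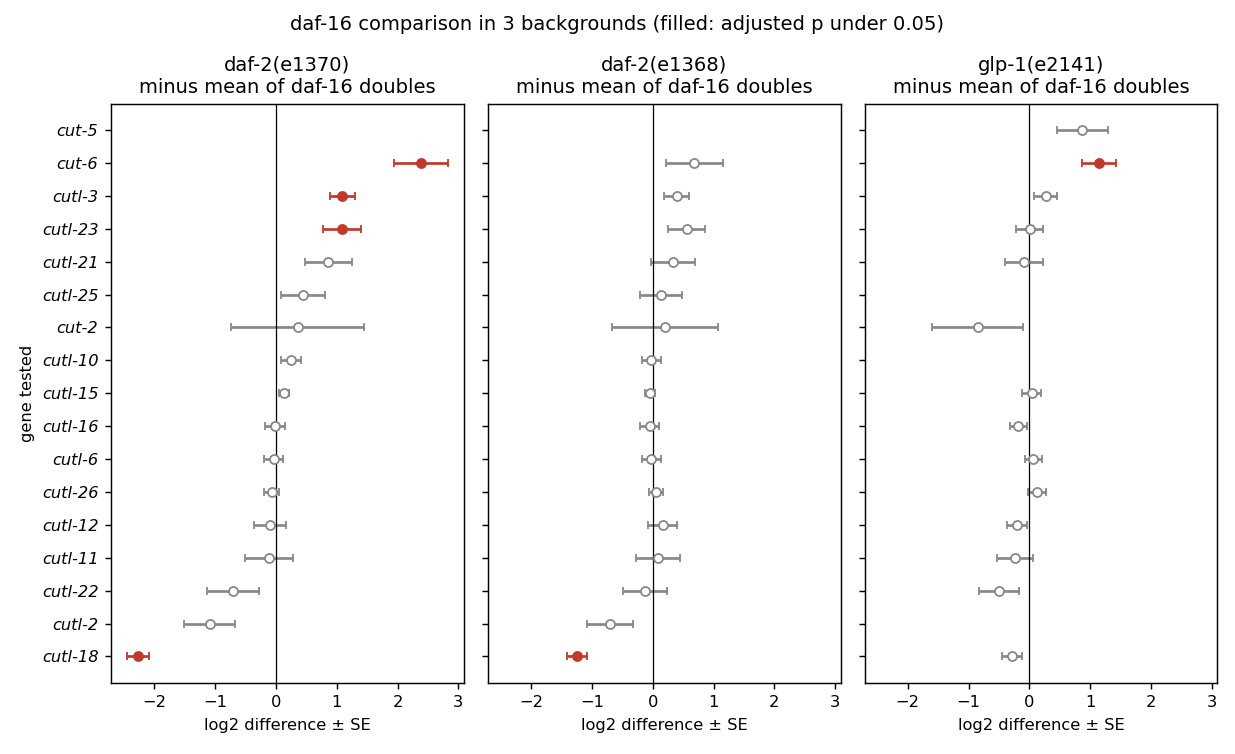
log2 difference (x axis, ± SE) of each tested cuticlin gene between a single mutant and the mean of its daf-16 doubles in 3 backgrounds. Filled points passed at an adjusted p under 0.05. cutl-18 is filled in both daf-2 alleles, cut-6 in daf-2(e1370) and glp-1(e2141).

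cutl-18 had the smallest adjusted p of the tested members in both daf-2 alleles. It encodes a cuticlin-like protein of undescribed role, on chromosome V at chrV:11311503-11317120 (build ce10). Its levels in replicates 0 to 4 of daf-2(e1370) were 2.09, 1.996, 1.745, 1.91 and 2.35 CPM. In the mg54 double they were 9.29, 7.28, 13.1, 10.1 and 11.04 CPM, and in the mu86 double 10.5, 8.79, 12.3, 10.8 and 10.7 CPM. All 5 daf-2(e1370) libraries lay below all 10 doubles, the shallow replicate 2 included. The log2 difference was -2.27 ± 0.18 (SE), with an adjusted p of 9.12e-12 by edgeR's quasi-likelihood test. WT libraries read 11.3, 10.4, 10.1, 8.47 and 7.81 CPM. They too lay above every daf-2(e1370) library, and the log2 difference from WT was -2.16 ± 0.19 (adjusted p = 2.39e-10, edgeR).

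The weak allele showed a smaller drop of cutl-18. daf-2(e1368) read 4.44, 4.53, 5.14, 4.095 and 4.11 CPM. Its mg54 double read 14.3, 9.33, 13.2, 8.40 and 8.22 CPM, and its mu86 double read 12.9, 9.61, 10.7, 9.23 and 8.45 CPM. The single mutant again lay below every double, by a log2 difference of -1.24 ± 0.16 (adjusted p = 1.68e-06, edgeR), and below every WT library, by -1.11 ± 0.18 (adjusted p = 0.000135, edgeR). daf-2(e1370) was lower than daf-2(e1368) in all 5 libraries, by -1.05 ± 0.19 (adjusted p = 0.000209, edgeR).

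In glp-1(e2141) the same gene read 24.2, 21.9, 14.8, 19.55 and 24.6 CPM. The mg54 double read 32.0, 31.9, 23.2, 26.3 and 19.2 CPM, and the mu86 double 19.3, 26.8, 32.2, 29.9 and 25.4 CPM. These groups overlap, and the log2 difference of -0.29 ± 0.16, with a 95% interval from -0.60 to 0.03, did not pass (adjusted p = 0.394, edgeR). The daf-16 comparison of cutl-18 differed between backgrounds when the difference itself was tested. It was more negative in daf-2(e1370) than in daf-2(e1368) by -1.02 ± 0.22 (adjusted p = 0.00459, edgeR), and than in glp-1(e2141) by -1.99 ± 0.22 (adjusted p = 3.87e-09, edgeR). daf-2(e1368) also differed from glp-1(e2141), by -0.88 ± 0.20 (adjusted p = 0.0201, edgeR), but without glp-1(e2141) replicate 4 this was -0.82 (adjusted p = 0.0636, edgeR). cutl-18 was the 1 member called in each of these 3 tests, against 4.84%, 7.23% and 0.867% of entries.

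The protein-coding gene T03F7.7 overlaps cutl-18 on the other strand, and 94% of cutl-18 values were not whole numbers. Whether reads of the 2 genes were divided was not tested. Whether counting used strand is not stated in the submitters' notes. T03F7.7 read 10.6 ± 1.57 CPM in daf-2(e1370) and 12.03 ± 3.23 and 11.6 ± 1.91 CPM in the doubles (SD, n = 5), a log2 difference of -0.08 ± 0.15 that did not pass (adjusted p = 0.731, edgeR). The snoRNA gene T03F7.8 at the same locus was lower in daf-2(e1370), from 0.631 ± 0.379 and 0.862 ± 0.813 CPM in the doubles to 0.0232 ± 0.0519 CPM (adjusted p = 0.00391, edgeR). That daf-2(e1370) mean lies under the level of 3 fragments in each of its libraries, 0.087 to 1.31 CPM. It therefore rests on very few fragments.

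cut-6, the dauer alae gene on chromosome III at chrIII:10911399-10916468 (build ce10), was higher in daf-2(e1370). Its 5 libraries read 1.39, 1.25, 0, 1.33 and 0.915 CPM. The 0 belongs to the shallow replicate 2, in which 3 fragments would read 1.31 CPM, so it says little. The mg54 double read 0.510, 0.0804, 0.210, 0.117 and 0.216 CPM, and the mu86 double 0.273, 0.283, 0.114, 0.170 and 0.274 CPM. The other 4 daf-2(e1370) libraries lay above all 10 doubles, with a log2 difference over all libraries of 2.38 ± 0.44 (adjusted p = 9.1e-05, edgeR) and of 2.55 without replicate 2 (adjusted p = 2.75e-05, edgeR). WT read 0.0884, 0.341, 0.404, 0.0422 and 0.131 CPM, and daf-2(e1370) exceeded it by 2.49 ± 0.55 on the log2 scale (adjusted p = 0.00122, edgeR). No annotated gene overlaps cut-6 in WBcel235, and all its values were whole numbers.

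daf-2(e1368) held 0.238, 0.319, 0.349, 0.246 and 0.527 CPM of cut-6. Its doubles ran from 0 to 0.379 CPM, overlapping it, and the log2 difference of 0.69 ± 0.47, with a 95% interval from -0.24 to 1.61, did not pass (adjusted p = 0.628, edgeR). daf-2(e1370) was higher than daf-2(e1368) by 1.77 ± 0.52 (adjusted p = 0.026, edgeR). Leaving out any of 5 libraries ended that call: adjusted p was 0.0625 and 0.0702 without daf-2(e1370) replicates 0 and 3, and 0.0729, 0.0639 and 0.0671 without daf-2(e1368) replicates 0, 1 and 3 (edgeR). The difference between the daf-16 comparisons of the 2 alleles, 1.70 ± 0.67 for cut-6, did not pass (adjusted p = 0.14, edgeR).

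cut-6 was also higher in glp-1(e2141) than in its doubles. The single mutant read 4.38, 1.39, 3.09, 1.62 and 1.77 CPM. The mg54 double read 1.39, 1.12, 1.31, 0.976 and 0.763 CPM, and the mu86 double 1.10, 0.883, 1.03, 1.86 and 1.12 CPM. Replicates 0 and 2 of glp-1(e2141) were the highest of the family, and the lowest 3 overlapped the doubles. The log2 difference was 1.14 ± 0.28 (adjusted p = 0.0265, edgeR), while neither double passed alone (adjusted p = 0.0702 against mg54 and 0.111 against mu86, edgeR). The call ended without glp-1(e2141) replicate 0 (0.82, adjusted p = 0.116, edgeR), without its replicate 2 (1.04, adjusted p = 0.0854, edgeR) and without the mu86 double replicate 1 (1.08, adjusted p = 0.0526, edgeR). Without the 3 libraries that stood apart it was 0.98 (adjusted p = 0.0277, edgeR).

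cutl-3, a cuticlin-like gene on chromosome X at chrX:14994872-14998914 (build ce10), was higher in daf-2(e1370) than in every double. daf-2(e1370) read 1.98, 2.74, 3.49, 2.58 and 2.09 CPM. The mg54 double read 0.902, 1.01, 1.77, 1.17 and 1.12 CPM, and the mu86 double 0.897, 1.30, 1.82, 1.09 and 1.10 CPM. The groups do not overlap, although the highest doubles come close to the lowest daf-2(e1370) library, and the log2 difference was 1.09 ± 0.21 (adjusted p = 0.000162, edgeR). WT read 1.47, 1.24, 1.515, 1.602 and 2.49 CPM and overlapped daf-2(e1370), with a difference of 0.64 ± 0.25 that did not pass (adjusted p = 0.0712, edgeR). daf-2(e1368) read 2.38, 1.34, 1.975, 1.597 and 1.24 CPM, overlapping its doubles at 0.851 to 1.66 CPM (0.40 ± 0.21, adjusted p = 0.413, edgeR). In glp-1(e2141), cutl-3 read 7.27, 3.91, 3.86, 5.96 and 4.57 CPM, within reach of its doubles at 2.86 to 6.41 CPM, with a log2 difference of 0.27 and a 95% interval from -0.09 to 0.63. The daf-16 comparison of cutl-3 in daf-2(e1370) differed from that in glp-1(e2141) by 0.81 ± 0.29, which did not pass (adjusted p = 0.0832, edgeR).

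cutl-23, a cuticlin-like gene on chromosome III within chrIII:5770139-5790757 (build ce10), lost its call under more of the alternatives named here than cutl-18, cut-6 or cutl-3 in this comparison. The protein-coding gene rev-3 overlaps it on the other strand in WBcel235, so its values may hold reads of that gene. All cutl-23 values were whole numbers, and whether reads of rev-3 were counted was not tested. daf-2(e1370) read 1.84, 1.11, 2.62, 2.61 and 1.74 CPM. The mg54 double read 0.274, 0.322, 0.809, 1.17 and 1.26 CPM, and the mu86 double 0.546, 0.769, 1.48, 1.59 and 1.45 CPM. The groups overlap, and the 4 lowest double values came from replicates 0 and 1, the libraries that stood apart. The log2 difference was 1.08 ± 0.32 (adjusted p = 0.00941, edgeR), at 1.40 against mg54 (adjusted p = 0.00694, edgeR) and 0.76 against mu86 (adjusted p = 0.15, edgeR). Without those 4 double libraries it was 0.64 (adjusted p = 0.0605, edgeR), and without daf-2(e1370) replicate 3 it was 0.87 (adjusted p = 0.0721, edgeR). WT read 1.39, 0.767, 1.41, 1.096 and 2.095 CPM and overlapped both groups. daf-2(e1368) read 1.40, 1.79, 2.67, 1.64 and 1.34 CPM, and its doubles 0.830 to 1.604 CPM, with no call (adjusted p = 0.449, edgeR). In glp-1(e2141) cutl-23 read 3.23, 1.52, 1.48, 2.23 and 1.40 CPM and its doubles 1.34 to 3.09 CPM, also with no call (adjusted p = 0.995, edgeR).

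**Figure D3:**
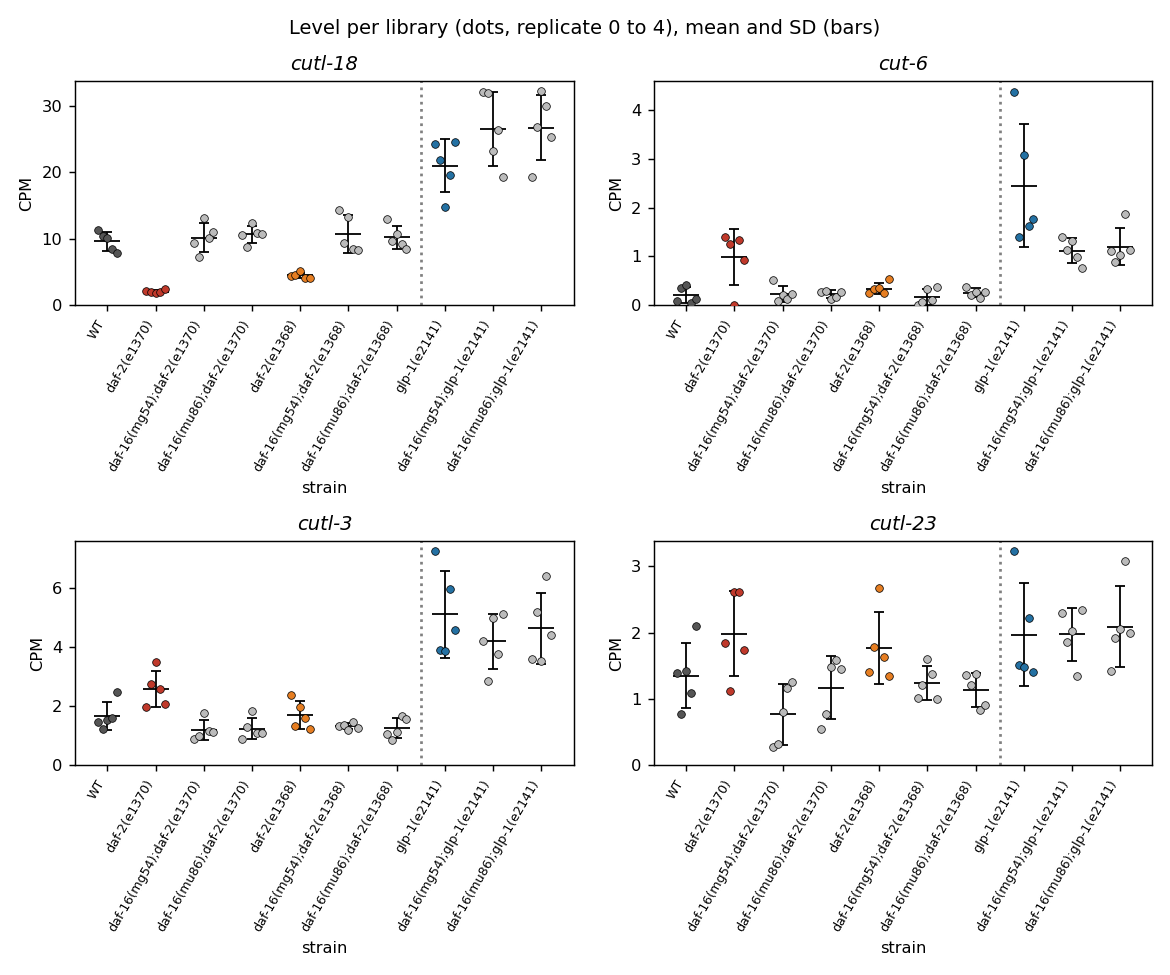
CPM (linear axis) of cutl-18, cut-6, cutl-3 and cutl-23 in each library of the 10 strains, as dots in the order of replicates 0 to 4, with the mean and SD of 5 as bars. A dotted line separates the glp-1 family. cutl-18 lies near 2 CPM in daf-2(e1370) and near 10 CPM in WT and in the doubles of both daf-2 alleles.

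Against WT, daf-2(e1370) had 2 of 16 tested members called (12.5%), cut-6 higher and cutl-18 lower, against 18.4% of entries. daf-2(e1368) had 1 (6.25%), cutl-18, against 2.17%. With daf-16 mutated, no member differed from WT by edgeR: 0 of 16 in the daf-2(e1370) doubles against 1.35% of entries, with 1 at an unadjusted p under 0.05, and 0 of 16 in the daf-2(e1368) doubles against 0.459%, with 0 at an unadjusted p under 0.05. DESeq2 gave 0 in both. For cutl-18 the intervals of the doubles minus WT were -0.19 to 0.40 and -0.17 to 0.43 on the log2 scale, and for cut-6 they were wider, -0.91 to 1.12 and -1.02 to 1.09. These comparisons share the WT samples. Between mg54 and mu86 doubles no member was called in any of the 3 backgrounds by edgeR or DESeq2, with 0 at an unadjusted p under 0.05 in each, against 0.213%, 0.0935% and 0.0193% of entries. daf-2(e1370) minus daf-2(e1368) called 2 of 16, against 8.72%.

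cutl-2, a cuticlin-like gene, read 0 to 0.174 CPM in daf-2(e1370), and 0.171 to 0.523 CPM in its doubles. Its difference of -1.09 ± 0.42 missed the threshold (adjusted p = 0.0531, edgeR), and passed against the mg54 double alone (-1.30, adjusted p = 0.0405, edgeR). cut-5, which helps form both larval and dauer alae, was too scarce for a test in the daf-2 family. It read 0.244, 0.464, 0.872, 0.290 and 0.0871 CPM in daf-2(e1370), where 0.872 belongs to the shallow library, and 0.0392 to 0.281 CPM in the doubles. In glp-1(e2141) it read 2.83, 0.884, 1.07, 0.947 and 1.40 CPM against 0.314 to 1.81 CPM in the doubles, with a difference of 0.87 ± 0.41 that did not pass (adjusted p = 0.292, edgeR). cut-5, cutl-2 and the genes of the next paragraph were picked after their values were seen.

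Several members, like many other entries, differed in level between the strain families. Temperature, growth time and germline all differ between families, so their parts cannot be told apart and no test is given. cutl-10 ran from 1.78 to 3.89 CPM in the 35 daf-2 family libraries (2554 fragments in all) and from 0 to 0.102 CPM in the 15 glp-1 family libraries (5 fragments in all). cutl-15 ran from 29.4 to 42.6 CPM, with a median of 33.4, in the daf-2 family and from 3.03 to 5.11 CPM, with a median of 3.81, in the glp-1 family. Both ranges are fully apart. T21B10.4, on the other strand of the cutl-15 locus, went the same way, from 91.8 ± 5.64 CPM in WT to 0.0818 ± 0.115 CPM in glp-1(e2141), and 78% of cutl-15 values were not whole, so reads of the 2 genes may be mixed. Of 19 members tested over all libraries these 2 lay lower in every glp-1 family library, against 26.9% of entries.

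Another 5 of the 19 members, cutl-11, cutl-12, cutl-16, cutl-18 and cutl-26, lay higher in every glp-1 family library, against 30.5% of entries. Neither the lower nor the higher members made up a larger share than among all entries. The median of cutl-12 was 1.18 CPM in the daf-2 family and 5.93 CPM in the glp-1 family. The same medians were 1.395 and 7.115 CPM for cutl-11, 2.62 and 8.73 CPM for cutl-16, and 5.49 and 13.7 CPM for cutl-26. Without TMM factors, cutl-18 no longer separated (highest daf-2 family library 16.1, lowest glp-1 family library 13.7 fragments per 1e6 of the library total). The other 4 still did, against 26.7% of entries by that scaling. Genes on the other strand of 2 of these loci went the same way. T04F8.8, over cutl-11, read 503.5 to 789 CPM in the glp-1 family against 41.1 to 249 CPM, with 98% of cutl-11 values not whole, and T03F7.7, over cutl-18, read 27.9 to 51.1 against 8.12 to 16.7 CPM. Summed epidermis markers, 9 genes, were 100.9 to 163 CPM in the daf-2 family and 197 to 225 CPM in the glp-1 family. Such a rise was not particular to epidermis. Median sums in WT and glp-1(e2141) were 616 and 1428 CPM for pharynx, 6234 and 13820 for muscle, and 2845 and 5068 for intestine. They were 420 and 522 CPM for neuron and 107 and 274 for embryo, but 1238 and 12.1 for sperm and 9073 and 11.1 for germline. The part of cell makeup in these differences was not tested. The cross-linked cuticlin cut-2 varied widely between replicates. It read 0.0673, 1.14, 4.69, 4.29 and 1.40 CPM in glp-1(e2141) and 5.03, 8.69, 5.81, 0.233 and 18.2 CPM in the mu86 double.

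**Figure D4:**
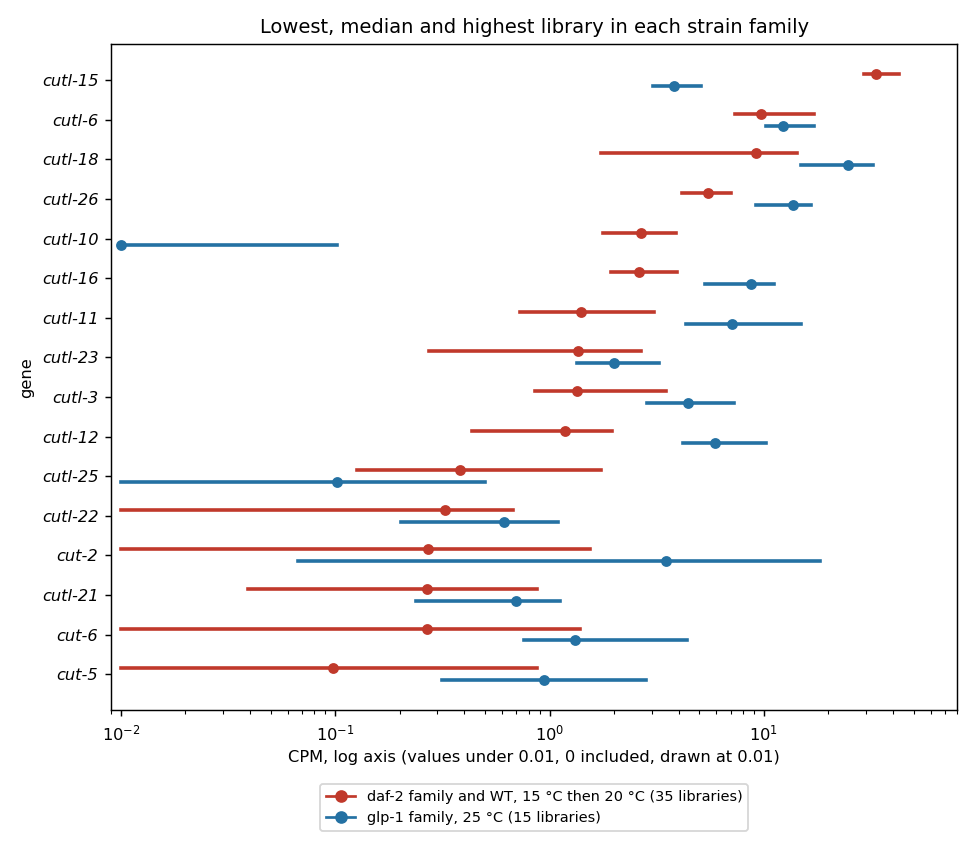
Lowest, median (dot) and highest library in the daf-2 family with WT (35 libraries, red) and the glp-1 family (15 libraries, blue) for the 16 cuticlin genes that reach 1 CPM in any library, on a log CPM axis where values under 0.01 are drawn at 0.01. The blue ranges of cutl-15 and cutl-10 lie below the red ones.

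Other cuticle genes were counted in the same daf-16 comparisons. Over the 5 lists, 16 of 59 genes tested (27.1%) were called in daf-2(e1370) minus doubles, 13 higher and 3 lower, against 27.9% of all entries. Among named cuticle collagens, the main structural proteins, 7 of 15 tested were higher in daf-2(e1370) than in its doubles and 0 lower, with a median of 1.40. bli-6 read 64.6 ± 24.6 against 13.4 ± 10.3 CPM (SD, n = 5 and 10), a difference of 2.32 (adjusted p = 0.000842, edgeR). bli-2 differed by 2.14 (adjusted p = 0.00364, edgeR) and rol-8 by 2.12 (adjusted p = 0.00414, edgeR). Without the 4 double libraries that stood apart, 4 of 15 collagens were higher and 1 lower, with a median of 0.85. That fit called 27.1% of all entries. Those 4 libraries had the lowest summed collagen levels of the doubles, 677 to 1413 CPM against 2113 to 2717 CPM in the other 6. The same sum was 1137 to 2258 CPM in daf-2(e1370) and 1491 to 2389 CPM in WT, overlapping both groups of doubles. The 7 called collagens make up little of these sums. In daf-2(e1370), bli-6 averaged 64.6 CPM and the others called averaged 0.975 to 2.51 CPM.

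Of the precuticle and molting genes, 4 of 18 were higher and 0 lower, among them let-4 (1.56, adjusted p = 0.00191), a matrix protein gene, mlt-9 (1.29, adjusted p = 0.00172) and lrp-1 (0.92, adjusted p = 0.0141), the megalin homologue, by edgeR. Without the same 4 libraries, where 27.1% of all entries were called, 4 of 19 were higher and 2 lower. lrp-1 rested on the shallow daf-2(e1370) replicate 2, without which it was 0.18 (adjusted p = 0.53, edgeR), and lost its call without the 4 libraries too (0.57, adjusted p = 0.139, edgeR). Of 6 other ZP genes, 1 fell, let-653 at 1.83 ± 0.964 against 3.98 ± 1.25 CPM (-1.23, adjusted p = 0.000111, edgeR), a gene of the precuticle matrix. In the cross-linking and collagen processing list, dpy-31, a procollagen protease gene, was higher (0.55, adjusted p = 0.0352, edgeR) and dpy-18, a prolyl hydroxylase gene, lower (-0.40, adjusted p = 0.0018, edgeR), of 8 tested. Without the 4 libraries 0 were higher and 3 lower, and dpy-31 no longer passed (0.22, adjusted p = 0.206, edgeR). In the list of molting and stage regulators, nhr-25, a nuclear receptor gene of the epidermis, was lower (-1.01, adjusted p = 0.0134, edgeR) and lin-42, the period homologue, higher (0.62, adjusted p = 0.00666, edgeR), of 13 tested. Without the 4 libraries 1 was higher and 2 lower, with no call for nhr-25 (-0.84, adjusted p = 0.0619, edgeR). Leaving out daf-2(e1370) replicate 2 gave 1 higher and 4 lower, with 24.7% of all entries called.

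In daf-2(e1368) minus its doubles none of the 5 lists had a call by edgeR, with 1 other ZP gene and 2 regulators at an unadjusted p under 0.05 and 0 in the other 3 lists. In glp-1(e2141), dpy-10 was the 1 collagen called of 15, lower by -1.73 (adjusted p = 0.0211, edgeR), and the molting genes mlt-10 (-1.13, adjusted p = 0.0174, edgeR) and mlt-11 (-0.95, adjusted p = 0.0421, edgeR) were lower. Without the 3 glp-1 family libraries that stood apart, 7 of 15 collagens tested were lower and 0 higher, in a fit that called 8.77% of all entries. Whether the lists differ between backgrounds was not tested.

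**Figure D5:**
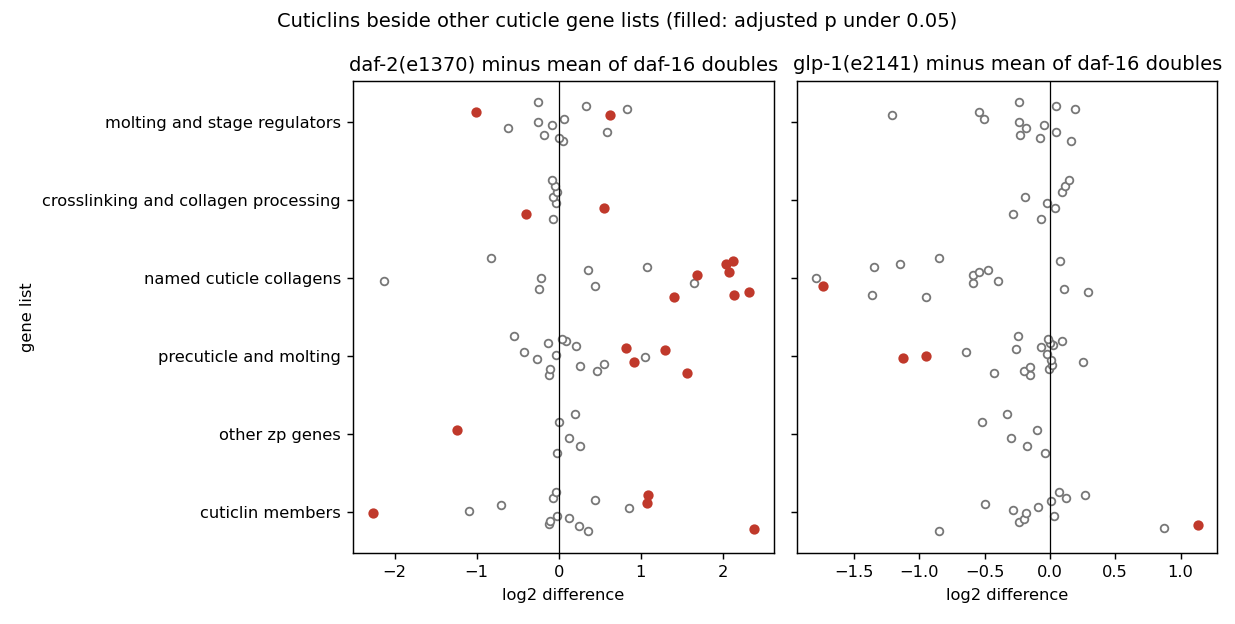
log2 difference (x axis) between daf-2(e1370) (left) or glp-1(e2141) (right) and the mean of its daf-16 doubles for each tested gene of the cuticlin members and 5 other cuticle gene lists (rows). Filled points passed at an adjusted p under 0.05, 7 collagens on the left and 1 on the right.

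Of 97 cell type markers tested in daf-2(e1370) minus doubles, 17 were called (17.5%), a lower share than the 27.9% of all entries. Called higher and lower by edgeR were 1 and 0 of 7 epidermis and seam markers (rol-6, which is also in the collagen list), 0 and 0 of 24 sperm (1 at an unadjusted p under 0.05), 0 and 1 of 12 germline, 0 and 1 of 8 embryo, 0 and 2 of 7 pharynx, 2 and 1 of 15 body wall muscle, 5 and 0 of 18 neuron and 2 and 2 of 7 intestine markers. Summed pharynx markers ran from 385 to 509 CPM in daf-2(e1370) and from 222 to 708 CPM in its doubles. The low end of the doubles, 222 to 374 CPM, came from the 4 libraries that stood apart, and the other 6 read 653 to 708 CPM, above every daf-2(e1370) library. Without those 4, 6 of 7 pharynx markers were lower, with a median of -1.49, and without daf-2(e1370) replicate 2, 3 of 7 were. These fits called 27.1% and 24.7% of all entries. Leaving out the 4 also gave 0 higher and 4 lower muscle, 0 and 2 sperm, 2 and 1 embryo, 1 and 1 germline, 1 and 1 epidermis, 3 and 0 neuron and 2 and 2 intestine markers. Summed neuron markers ran from 485 to 636 CPM against 370 to 477 CPM, with no overlap. These sums do not cover the same genes, since unc-18 was at 0 in every library of the doubles and WT but not of daf-2(e1370). Its share of the gap was not tested. Summed epidermis markers ran from 104.4 to 163 CPM against 100.9 to 116 CPM. The top values, 636 and 163 CPM, came from the shallow daf-2(e1370) replicate 2. Its other replicates read 485 to 521 CPM for neuron and 104.4 to 110.7 CPM for epidermis markers. Of the 9 epidermis and seam markers, nhr-73 and bro-1 were at 0 in every library of daf-2(e1370), its doubles and WT. Their part in the cuticlin results was not tested. Without the 4 double libraries, the differences of cutl-18 (-2.42), cut-6 (2.65) and cutl-3 (0.90) still passed, with adjusted p of 2.29e-12, 0.000143 and 0.00314 by edgeR.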

How the data were processed

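The values are estimated counts per gene entry that the authors deposited for 50 libraries in 1 table, with 0 columns of other samples. Per the labels' protocols, polyadenylated RNA was sequenced with 100 cycles from both ends. Per the submitters' processing notes, the tools were Cuffdiff 2.1.1, Cufflinks, Bowtie2 2.1.0, TopHat2 2.0.9, cutadapt and FastQC 0.10.1, on build ce10. Their settings, the annotation and any use of strand are not stated there. Counts were rounded, since 71.8% of the values above 0 were whole to within 0.02. The 314 entries that name no gene held 0.187% to 0.48% of fragments and were left out. Loci at 0 in every library of a strain, while another strain averaged at least 1000 fragments, were left out (10 loci in the daf-2 family, 1 in the glp-1 family).

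The main test was the edgeR 4.0.16 quasi-likelihood test under R 4.3.3 (TMM, filterByExpr, robust quasi-likelihood fit on strain, Benjamini-Hochberg adjusted p under 0.05 over all entries). Each family was fitted alone, and differences between daf-2 and glp-1 backgrounds on all 50 libraries. CPM uses the TMM factors of all 50. SE comes from the quasi-likelihood F, and 95% intervals are 1.96 SE to each side. The fit was tested on simulated data. DESeq2 1.42.0 served as an alternative, with RLE factors, no filter, other sample sets, the replicate block and each library left out. Values in every library were printed for members called with the 4 largest log2 differences in the daf-16 comparisons and in each daf-2 allele minus WT, and up to 3 called genes were named per list (5 lists of cuticle genes, 8 of cell type markers). Without separate animals or cultures named beyond the 5 biological samples per strain, p-values measure the spread between those samples. Members, lists and tests were chosen with earlier results of these data known. Replicate pairs within strains differed beyond sampling noise (chi-square per degree of freedom 7.21 to 177 over 100 pairs). Exon lengths, overlaps and gene names come from WBcel235.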

Additional observations from a re-analysis of the deposited data

Results flagged for a closer look

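Within a strain, 8 library values lay far from the other 4 among 80 groups of 5 libraries looked at (Dixon's test at 95%, which by chance alone marks about 1 group in 20). cut-6 read 1.86 CPM in replicate 3 of the mu86 double of glp-1(e2141). cut-5 read 0.281 CPM in replicate 1 of the mg54 double of daf-2(e1370), 2.83 CPM in replicate 0 of glp-1(e2141) and 1.49 CPM in replicate 2 of its mg54 double. This cut-6 value and the 2 cut-5 values in the glp-1 family belong to the libraries that stood apart by their pharynx markers. cutl-15 read 39.98 CPM in replicate 0 of the mg54 double of daf-2(e1370), another library that stood apart. cutl-10 read 0.0631 CPM in replicate 1 of glp-1(e2141) and 0.102 CPM in replicate 4 of its mg54 double, where the other 4 libraries were at 0. These are 1 and 2 fragments, under the limit of 3, and beside 4 zeros any value above 0 is marked, so they carry no information on spread. cut-2 read 1.20 CPM in replicate 2 of the mg54 double of daf-2(e1368).

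The daf-16 comparison of cutl-18 differed between backgrounds in the test of the difference itself, by -1.02 between daf-2(e1370) and daf-2(e1368), by -1.99 between daf-2(e1370) and glp-1(e2141), and by -0.88 between daf-2(e1368) and glp-1(e2141). Temperature and growth time differ between families, and the eggs of daf-2(e1370) were laid earlier. Their parts and that of genotype cannot be told apart.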

How the results depend on the processing

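The labels do not say that a replicate number marks a shared batch, and not every same-numbered pair correlated over 0.1, so the numbers were not taken as pairing the samples. In the daf-2 family 80 of 105 such pairs did (-0.45 to 0.95, median 0.47, against -0.1 for unlike numbers), and in the glp-1 family 1 of 15. This is a hint that same-numbered daf-2 family libraries vary together. The library numbers in the labels also run on across the strains within each replicate number, though no batch is named. With the replicate block, daf-2(e1370) minus doubles called 5657 entries in place of 3277, and 5 members, with cutl-2 added. daf-2(e1370) minus WT and minus daf-2(e1368) each called 3, with cutl-3 added, beside 3337 and 2948 of 11763 entries. The difference of the daf-16 comparison between daf-2 alleles called 3 (cut-6, cutl-18, cutl-3), beside 3641 of 11763 entries. With the block, glp-1(e2141) minus doubles called 0, beside 266 of 10381 entries. It also called 0 with all 50 libraries in 1 fit, beside 859 of 12336 entries. cut-6 in glp-1(e2141) minus doubles had adjusted p of 0.0575 and 0.0708 in these fits by edgeR. Without the filter on low counts, the test of daf-2(e1370) against glp-1(e2141) in the daf-16 comparison called 2 (cutl-18 and cutl-9), beside 747 of 17179 entries. The cause was not tested. cutl-23 lost its call when only the compared strains were fitted (adjusted p = 0.0685, edgeR). Leaving out 1 library at a time gave 3 to 5 members in daf-2(e1370) minus doubles, 0 to 1 in glp-1(e2141) minus doubles, 2 to 3 in daf-2(e1370) minus WT, 1 to 3 in daf-2(e1370) minus daf-2(e1368), 1 to 3 in that test (3 without glp-1(e2141) replicate 0, where cutl-3 and cutl-23 joined) and 0 to 1 in the same test of daf-2(e1368) against glp-1(e2141). Counts over all entries are not given for these runs, so the ranges are not read as a result about the members. No called value changed sign under any alternative run. At this depth 14 members, cut-3 and cut-5 among them, were too scarce for a test in the daf-2 family, and 16 in the glp-1 family.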

Other observations

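The 4 cuticlin names that share an entry with other genes were looked at as entries, and no value can be credited to the cuticlin gene alone. The entry Y38C1AA.6,cutl-24 was higher with daf-16 intact in all 3 backgrounds. It read 15.97 ± 2.72 CPM (SD, n = 5) in daf-2(e1370) against 3.61 ± 0.668 and 3.81 ± 0.610 CPM in the doubles, a log2 difference of 2.19 ± 0.12 (adjusted p = 3.12e-15, edgeR). In daf-2(e1368) the difference was 1.43 ± 0.12 (adjusted p = 5.4e-10, edgeR), and in glp-1(e2141) 1.11 ± 0.18 (adjusted p = 0.00153, edgeR), at 30.85 ± 7.76 against 13.7 ± 4.42 and 16.2 ± 3.91 CPM. Against WT, at 3.99 ± 0.567 CPM, it was higher in daf-2(e1370) by 2.06 ± 0.15 (adjusted p = 5.98e-12, edgeR) and in daf-2(e1368) by 1.12 ± 0.15 (adjusted p = 8.76e-06, edgeR). Its daf-16 comparison was larger in daf-2(e1370) than in daf-2(e1368) by 0.77 ± 0.18 (adjusted p = 0.00968, edgeR). The allele and the earlier egg laying of daf-2(e1370) cannot be told apart there.

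The entry that holds cutl-14 with B0511.6, C43H8.1 and C43H8.2 was slightly lower in daf-2(e1370) than in its doubles (-0.18 ± 0.06, adjusted p = 0.0241, edgeR), at 275.5 ± 33.1 against 339.5 ± 45.3 and 322 ± 37.6 CPM. Against each double alone, this entry passed with mg54 (adjusted p = 0.0338, edgeR) and not with mu86 (adjusted p = 0.104, edgeR). It was also lower in glp-1(e2141) than in its doubles (-0.29 ± 0.06, adjusted p = 0.0113, edgeR). In daf-2(e1368) it did not pass (-0.04 ± 0.06, adjusted p = 0.815, edgeR). The entries with cut-4 (-0.51 ± 0.26, adjusted p = 0.146, edgeR) and with cutl-20 and shc-1 (-0.12 ± 0.07, adjusted p = 0.208, edgeR) did not pass in daf-2(e1370) minus doubles.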
